A study of Rattus norvegicus with 38 samples.

Results

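Interleukin-6 (IL-6), its signal transducer Stat3, the feedback inhibitor Socs3, and the acute phase genes Lcn2, Reg3b, Reg3g and A2m followed different patterns in the hearts of a rat transplant model. Il6 was high in rejecting allografts alone, whereas Lcn2, Reg3b and Reg3g were also high in the native hearts of the rejecting animals. The group comprised 8 genes (Il6, Osmr, Stat3, Socs3, Lcn2, Reg3b, Reg3g and A2m), and every probeset annotated to one of these symbols or to a former name of it was taken. The annotation paired 8 probesets with 7 of the genes on each array type, 2 of them with Stat3, out of 15866 probesets on the heart array and 31042 on the blood array. No probeset was listed for Osmr, the receptor chain of oncostatin M, which is therefore not analysed here. The genes were chosen by earlier results of these same data. Which values were used is not recorded. The differences between allografts and isografts and between native hearts are taken as used, so the values of these genes in heart tissue are a description. Calls and adjusted p-values in heart tissue apply the criteria of the study and are not read as independent tests. Results in blood were known as well when the genes were chosen, and the tests given there are therefore not independent of that choice. The probesets were 1369191_at (Il6), 1370224_at and 1371781_at (Stat3), 1369584_at (Socs3), 1387011_at (Lcn2), 1368238_at (Reg3b), 1370631_at (Reg3g) and 1367794_at (A2m).

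IL-6 is a cytokine that binds the IL-6 receptor together with the shared chain gp130 (Il6st), after which Janus kinases phosphorylate the transcription factor STAT3. STAT3, often together with C/EBP factors, induces acute phase genes, and it also induces SOCS3, which binds gp130 and dampens the signal. Lipocalin 2 (Lcn2) sequesters bacterial siderophores and is stored in neutrophil granules, Reg3b and Reg3g are secreted C-type lectins first described in pancreas and gut, and alpha-2-macroglobulin (A2m) is a protease inhibitor that is a classic acute phase protein of rat liver. In heart, IL-6 family cytokines are known to act on cardiomyocytes through STAT3, and Reg3b has been described in injured cardiac muscle.

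Hearts were measured on 18 RAE230A oligonucleotide arrays and peripheral blood mononuclear cells (PBMC) on 20 RAE230 2.0 arrays, 1 array per sample. A Dark Agouti (DA) heart was joined to the abdominal vessels of a Brown Norway (BN) rat, giving an allograft that was rejected (n = 5), or of a DA rat, giving an isograft (n = 4), and grafts and native hearts were taken on post-transplant day 6. The native hearts were accordingly BN in the 5 allograft recipients and DA in the 4 isograft recipients, and strains of hearts are given here as stated in the study's methods. PBMC were drawn from rats that carried an allograft (BN, n = 5) or an isograft (DA, n = 9) and from rats without a transplant (n = 3 of each strain). BN and DA are inbred strains, and no age or sex is given for any group. In native hearts and in the PBMC of recipients, strain and type of graft coincide and cannot be told apart. Between allografts (DA) and the native hearts of the same recipients (BN), strain of the heart and rejection in the graft coincide too. Recipient cells within a graft are BN in allografts and DA in isografts. The study names as a limit that lymphocytes entering the allograft may bring expression of their own strain. PBMC of transplanted and untransplanted rats were processed as separate batches, so transplantation and batch cannot be told apart either. All values below are signals divided by the median of their array, so that 1 is the middle probeset of an array, and levels of different probesets are not compared with each other. Array medians before this step lay between 38.3 and 50.8 in heart and between 20.2 and 36.8 in PBMC.

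The defining genes of heart muscle were bright in the heart arrays. The summed level of 11 cardiomyocyte genes ran from 693 to 1130 array medians in isografts and native hearts and from 173 to 474 in allografts. Monocyte and macrophage genes (8 measured) summed to 249 to 416 in allografts, 51.6 to 110 in isografts, 22.9 to 37.3 in native BN hearts and 19.8 to 26.4 in native DA hearts. In such bulk samples, a change in the number of cells of a type and a change in RNA per cell cannot be told apart.

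Il6 lay above the array median in the 5 allografts alone. Its signal was 1.58 in recipient A3, 4.5 in A4, 8.18 in A5, 3.12 in A6 and 1.99 in A7. In the isografts it was 0.0402 in recipient I9, 0.286 in I11, 0.0471 in I12 and 0.0346 in I13. Every allograft lay above every isograft, and isograft I11 stood apart from the other isografts. The native BN hearts of the rejecting animals had 0.0780 (A3), 0.0318 (A4), 0.322 (A5), 0.0687 (A6) and 0.0692 (A7), and the native DA hearts 0.0471 (I9), 0.0680 (I11), 0.0470 (I12) and 0.0463 (I13). The animals with the most Il6 in their native heart, A5 and I11, also had the most Il6 in their graft within their group. Il6 in native hearts was at the bottom of the arrays, at percentiles 2.7 to 22.6 in BN and 3.1 to 6.5 in DA hearts. This order is therefore not read as a link within animals. On the log2 scale allografts exceeded isografts by 5.62 (SE 0.66, 49.3-fold) and native BN hearts by 5.30 (SE 0.63, 39.4-fold). The size of these ratios rests on signals at the bottom of the arrays, since Il6 in isografts ranked between the percentiles 3.3 and 21.3 of all probesets on its array, and with 0.25 array medians added before the logarithm the difference from isografts was 3.38.

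Stat3 was above the array median in all 18 hearts. By probeset 1370224_at its level was 7.49, 13.5, 5.90, 4.89 and 8.66 in the allografts of A3 to A7, and 6.35, 6.37, 6.79 and 5.62 in the isografts of I9, I11, I12 and I13. These ranges overlapped, with a log2 difference of 0.28 (SE 0.24). Native hearts were lower by this probeset, with 2.74 to 4.87 in BN and 3.24 to 4.13 in DA rats, and the graft exceeded the native heart of the same recipient in all 9 animals, by 1.63-fold to 2.77-fold. The second probeset, 1371781_at, ran from 4.75 to 10.6 in allografts, 3.77 to 5.66 in isografts, 3.82 to 8.52 in native BN hearts and 3.20 to 4.78 in native DA hearts, and all neighbouring groups overlapped. By it allografts exceeded isografts by 0.66 on the log2 scale (SE 0.28, adjusted p = 0.0794 in limma). That difference was no longer past the threshold without allograft A3, A4 or A7 or isograft I9, I11 or I12. By 1371781_at the graft exceeded the native heart in 7 of the 9 animals only, with the opposite order in A5 and I12, so the 2 Stat3 probesets did not give the same pattern.

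Socs3, the feedback inhibitor, was 1.38, 2.40, 1.90, 1.65 and 0.980 in the allografts of A3 to A7. The isografts had 0.704 (I9), 0.852 (I11), 0.790 (I12) and 0.587 (I13), below every allograft. The log2 difference was 1.13 (SE 0.28, 2.19-fold), which is under the 3-fold limit of the study. The native BN hearts (0.963 to 1.65) overlapped both the allografts and the native DA hearts (0.621 to 1.41).

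**Figure D1:**
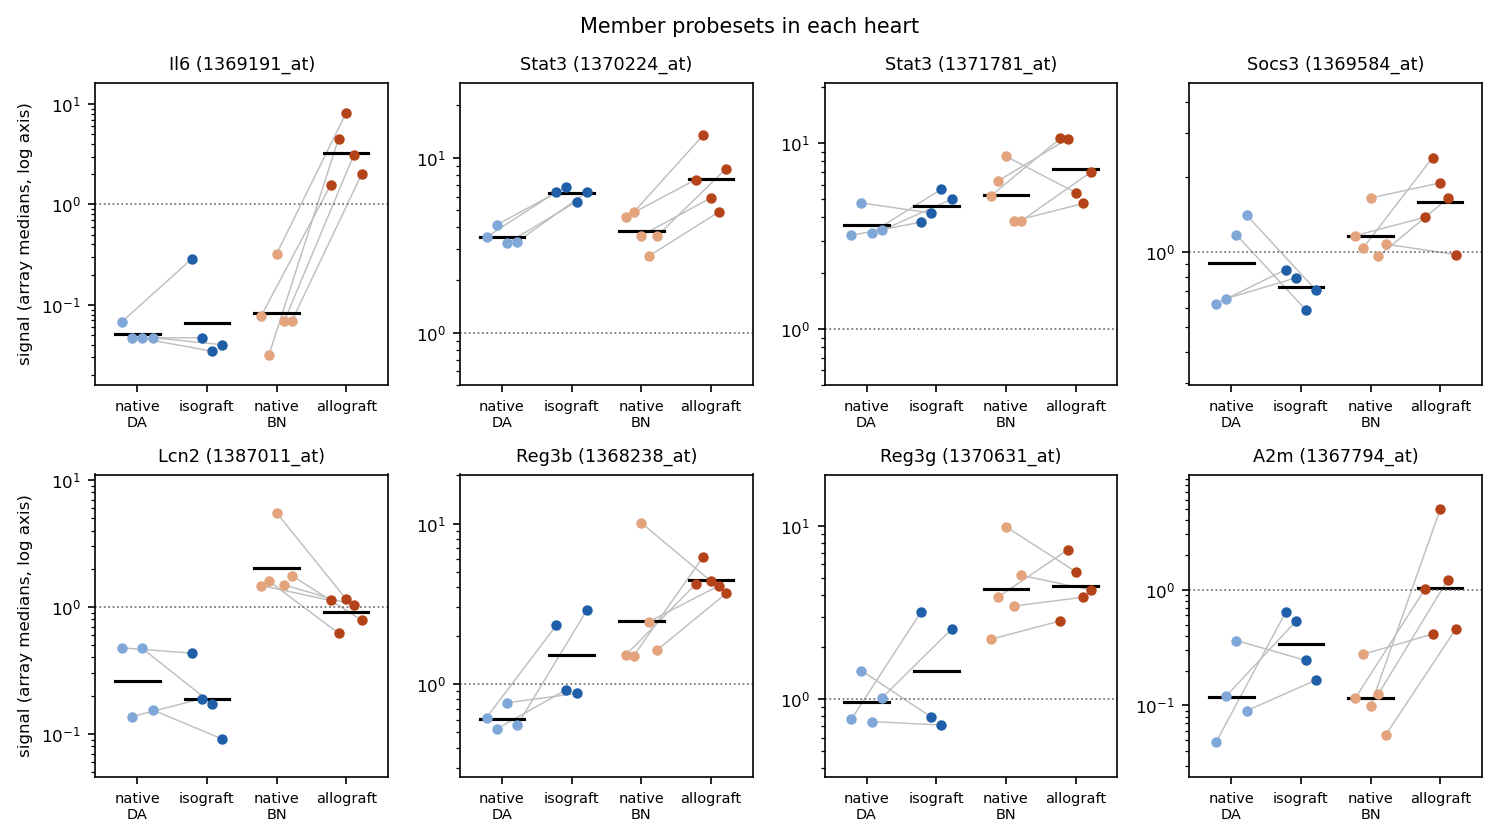
Signals of the 8 member probesets in each of the 18 hearts. The y axis is the signal in array medians on a log axis with the array median dotted, points are hearts, black bars are geometric means, and grey lines join the native heart and the graft of a recipient. Il6 lies above the array median in the 5 allografts alone, while Lcn2 is highest in the 5 native BN hearts (1.47 to 5.52).

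Lcn2 had its highest levels outside the graft. In the native BN hearts of the rejecting animals its signal was 1.47 (A3), 1.6 (A4), 5.52 (A5), 1.49 (A6) and 1.77 (A7). In the native DA hearts it was 0.155 (I9), 0.476 (I11), 0.137 (I12) and 0.471 (I13), and no value of either group reached the other. Allografts lay between them with 1.12, 0.621, 1.15, 1.03 and 0.788 in A3 to A7, and isografts were low with 0.0912 (I9), 0.433 (I11), 0.190 (I12) and 0.173 (I13). Native BN exceeded native DA hearts by 2.95 on the log2 scale (SE 0.50, 7.73-fold) and allografts exceeded isografts by 2.28 (SE 0.50, 4.84-fold). Within each of the 5 rejecting animals the native BN heart had more Lcn2 than the DA graft. The difference was 1.31-fold in A3, 2.58-fold in A4, 4.80-fold in A5, 1.45-fold in A6 and 2.24-fold in A7. In the isograft recipients the order was mixed, with the native heart above the graft in I9, I11 and I13 and below it in I12.

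Neutrophils carry Lcn2, and their marker genes are given beside it. The summed level of 10 neutrophil genes was 12.6 to 33.9 in allografts, 3.71 to 14.3 in native BN hearts, 4.33 to 6.56 in native DA hearts and 3.04 to 4.45 in isografts. Of these 10 genes, 4 were not below the array median in 50% or more of the allografts, 2 were so in native BN hearts (S100a9 and Fcnb led), and 1 was so in native DA hearts and in isografts. Native BN heart A3 had the lowest marker sum of its group, 3.71, under all 4 native DA hearts, and its Lcn2 was 1.47 against at most 0.476 in native DA hearts. In native BN heart A5, where Lcn2 was 5.52, the marker sum was also the highest of its group. The part of neutrophils in the Lcn2 differences was not tested.

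Reg3b and Reg3g, related members of the Reg family, both had higher values in the native hearts of BN than of DA rats. Reg3b was 4.18, 6.21, 4.38, 4.09 and 3.67 in the allografts of A3 to A7 and 2.89, 2.32, 0.922 and 0.873 in the isografts of I9, I11, I12 and I13. It was 1.52, 1.49, 10.1, 2.44 and 1.62 in the native BN hearts of A3 to A7 and 0.552, 0.617, 0.524 and 0.763 in the native DA hearts. Allografts lay above all isografts, and native BN hearts above all native DA hearts. The log2 difference was 1.54 (SE 0.49, 2.91-fold) between grafts and 2.02 (SE 0.49, 4.05-fold) between native hearts. Native heart A5 held the highest Reg3b of all 18 hearts.

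Reg3g was 2.83, 7.31, 5.46, 3.88 and 4.28 in the same allografts and 2.54, 3.19, 0.791 and 0.711 in the isografts of I9, I11, I12 and I13. Here the graft groups overlapped through isograft I11, which exceeded allograft A3. The native BN hearts had 2.22, 3.89, 9.92, 3.45 and 5.19 in A3 to A7, above all native DA hearts with 1.02 (I9), 0.766 (I11), 1.46 (I12) and 0.744 (I13). Native BN exceeded native DA hearts by 2.18 on the log2 scale (SE 0.48, 4.52-fold), allografts exceeded isografts by 1.63 (SE 0.48, 3.09-fold), and allografts differed from native BN hearts by 0.06 (SE 0.45). Both Reg3 genes were higher in the isograft than in the native heart of recipients I9 (5.23-fold for Reg3b, 2.49-fold for Reg3g) and I11 (3.75-fold and 4.16-fold), whereas Reg3g was higher in the native heart than in the isograft of I12 (1.85-fold) and I13 (1.05-fold). The pancreas is a known source of both genes, and 0 of 12 pancreatic acinar genes reached the array median in at least 50% of any heart group, with a summed level of 2.92 to 4.58 over all 18 hearts. Among these dim genes Cela1 (log2 difference 2.77, SE 0.33) and Cpa1 (1.55, SE 0.64) were higher and Ctrb1 (-1.70, SE 0.59) was lower in allografts than in isografts, and a part of pancreatic cells in the Reg3 values was not tested. Both proteins are related, and how far each probeset also binds the transcript of the other was not tested.

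The promoters of the 3 genes that were high in native BN hearts are shown because these genes moved together there. The sequences are the 250 bases before the RefSeq start of each gene in rat assembly GRCr8, which was made from the BN strain, read 5′ to 3′ on the gene's strand. Lcn2 is at chr3:36081781-36082030 (minus strand), Reg3b at chr4:112419526-112419775 (plus strand) and Reg3g at chr4:112484739-112484988 (minus strand). Capitals mark matches on either strand to TTCNNNGAA, the core of a STAT binding motif, or to CTGGGAA, the core of the type II acute phase element of rat acute phase genes.
Lcn2: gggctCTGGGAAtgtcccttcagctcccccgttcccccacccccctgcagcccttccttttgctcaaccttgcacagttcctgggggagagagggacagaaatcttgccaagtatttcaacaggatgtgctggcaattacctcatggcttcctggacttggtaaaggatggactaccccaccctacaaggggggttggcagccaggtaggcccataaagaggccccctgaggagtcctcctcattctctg
Reg3b: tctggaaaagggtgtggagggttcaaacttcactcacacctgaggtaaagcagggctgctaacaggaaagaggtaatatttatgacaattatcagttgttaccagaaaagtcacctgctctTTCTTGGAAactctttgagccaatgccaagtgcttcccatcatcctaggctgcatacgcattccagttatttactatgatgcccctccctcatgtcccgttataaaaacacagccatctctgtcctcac
Reg3g: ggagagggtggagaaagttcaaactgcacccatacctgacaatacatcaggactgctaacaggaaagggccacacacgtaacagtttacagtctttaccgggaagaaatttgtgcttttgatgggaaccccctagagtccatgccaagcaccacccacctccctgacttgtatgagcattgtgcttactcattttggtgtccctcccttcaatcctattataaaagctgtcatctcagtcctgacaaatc
The Reg3b promoter held 1 STAT motif, TTCTTGGAA at -129 to -121 from the start, and the Lcn2 promoter held CTGGGAA at -245 to -239. The windows of Reg3g, Il6, Osmr, Stat3 and Socs3 held neither motif, and none was listed for A2m. Among 33469 rat promoters of the same length, 7.67% held TTCNNNGAA and 9.56% held CTGGGAA. Reg3b and Reg3g were identical at 172 of 263 aligned positions (65.4%), and the other pairs of the 7 promoters at 43.0% to 52.5%. A match describes the letters of this window and not binding.

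A2m was weak in most hearts and had its highest values in some allografts. Its signal was 1.01 (A3), 0.413 (A4), 4.94 (A5), 1.22 (A6) and 0.453 (A7) in allografts and 0.166 (I9), 0.636 (I11), 0.532 (I12) and 0.245 (I13) in isografts, with overlap. In native BN hearts it was 0.0559 to 0.276 and in native DA hearts 0.0479 to 0.363, and only 3 of the 18 hearts, all allografts, reached the array median. Allografts exceeded isografts by 1.59 on the log2 scale (SE 0.71, 3.00-fold), a value at the 3-fold limit that was 1.02 without allograft A5, and they exceeded the native BN hearts by 3.14 (SE 0.67, 8.79-fold). Between native BN and native DA hearts the log2 difference of A2m was 0.00 (SE 0.71), beside values above 2 for Lcn2, Reg3b and Reg3g. The summed level of 8 liver genes was 3.52 to 4.59 in allografts, 5.08 to 6.15 in isografts and 7.81 to 12.5 in native hearts.

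**Figure D2:**
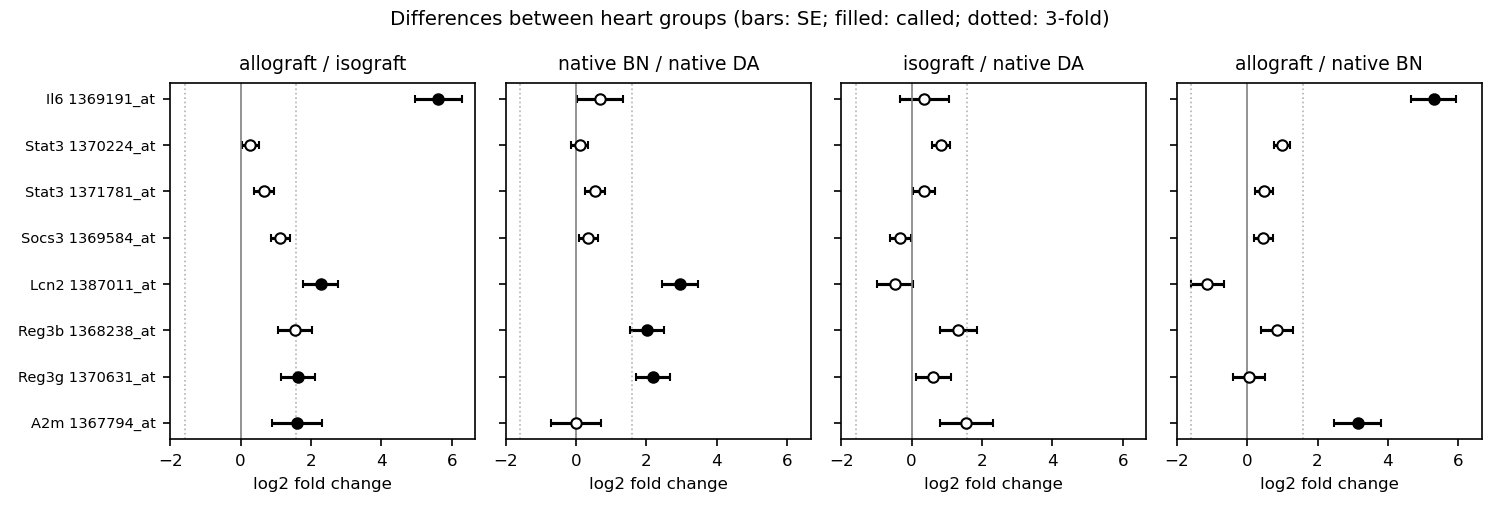
Log2 fold changes of the 8 member probesets in 4 comparisons of heart groups, with the SE of the limma fit as bars. Filled points were called (adjusted p of at most 0.10, at least 3-fold, dotted, and signal criterion). Lcn2, Reg3b and Reg3g are filled for native BN over native DA hearts, and Il6 and A2m for allograft over native BN hearts.

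By the criteria of the study, adapted to signals (Benjamini-Hochberg adjusted p of at most 0.10 in limma, at least 3-fold, and, in 50% or more of 1 of the groups, a signal not below the median of its array), 4 of the 8 probesets were called between allografts and isografts, namely Il6, Lcn2, Reg3g and A2m. Of all heart probesets 8.86% were called there. Between native hearts Lcn2, Reg3b and Reg3g were called, against 0.359% of all probesets, and between allografts and native BN hearts Il6 and A2m were called, against 11.1%. Since the genes were chosen on these contrasts, nothing is read from these shares. The counts also moved with single samples. Between grafts, Reg3g and A2m were both lost without allograft A5 or isograft I13, and 1 of them was lost without allograft A3, A4 or A6 or isograft I9 or I12. The Reg3b call between native hearts was lost without native BN heart A5 or native DA heart I9, I11 or I12. All 8 probesets met the signal criterion in both allograft comparisons and 6 did in native hearts, Il6 and A2m being too dim.

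The effect of transplantation without rejection was read from grafts in DA recipients. Between isografts and native DA hearts, 0 of the 8 probesets were called, against 0.908% of all probesets, and 5 met the signal criterion. The arrays of both groups also stand in the contrasts above, so these differences are described as well. The largest on the log2 scale were 1.55 for A2m (SE 0.75), 1.33 for Reg3b (SE 0.52) and 0.83 for Stat3 1370224_at (SE 0.25). Isografts and native DA hearts did not overlap for Stat3 by this probeset (5.62 to 6.79 against 3.24 to 4.13) or for Reg3b (0.873 to 2.89 against 0.524 to 0.763). Il6 differed by 0.36 (SE 0.70), a value that was -0.35 without isograft I11.

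Recipient A5 stood apart in several members at once. Its native heart had the highest Il6, Socs3, Lcn2, Reg3b and Reg3g of the 5 native BN hearts, and its graft had the highest Il6, Lcn2 and A2m of the 5 allografts. Over all heart probesets, 0.296% had a high value in native heart A5 that met Dixon's criterion for an outlier, against 0.233% to 0.851% for the other 4 native BN hearts. Without native heart A5, native BN exceeded native DA hearts by 2.59 for Lcn2, 1.51 for Reg3b and 1.88 for Reg3g on the log2 scale. Reg3b then fell under the 3-fold limit, while the other pair stayed above it.

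Over the 18 hearts the patterns of the members were alike to different degrees, as described by Pearson's r of log2 signals, which reflects the 4 groups and gives no test. Reg3b and Reg3g had an r of 0.87, and by this measure each was the closest gene to the other among 10411 genes. Il6 correlated with Reg3b at 0.74, with Socs3 and A2m at 0.71, with Reg3g at 0.62, with Stat3 at 0.56 and with Lcn2 at 0.38. Stat3 stands here for its probeset 1371781_at alone. Lcn2 correlated with Reg3g at 0.69, with Reg3b at 0.60 and with A2m at 0.06. Genes closest to Il6 were Cybb, a subunit of the phagocyte oxidase (0.97), Hpcal1 (0.95) and Cebpb, a transcription factor of the acute phase response (0.95). Closest to A2m were Flrt2 and Edem1 (0.90 each) and Lox, a collagen crosslinking enzyme (0.89). After Reg3g, the genes closest to Reg3b were Sele, the endothelial adhesion molecule E-selectin, and Hoga1 (0.83 each), and those closest to Lcn2 were Wipi2 (0.79), Cyth1 and Magt1 (0.78 each). With group means removed, which leaves the differences between hearts of a group, the order was another. Il6 then correlated with Reg3b and Reg3g at 0.64, with Lcn2 at 0.63, with Socs3 at 0.49, with A2m at 0.20 and with Stat3 at -0.09. Outside allografts Il6 was below the array median in every heart, which limits these values. Reg3b correlated with Reg3g at 0.75, and Lcn2 with Reg3b at 0.45 and with Reg3g at 0.14. By this measure Reg1a, another Reg family gene, was the closest to Reg3b (0.81), Ptk7 to A2m (0.89), Elf1 to Il6 (0.78) and Tmsb15b2 to Lcn2 (0.79).

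Many other genes of the pathway were higher in allografts. The pathway lists were also chosen with earlier results of these data known. Their shares in this and the later comparisons are therefore a description. Of 84 other measured genes in 7 lists (ligands, receptors, kinases and adaptors, inhibitors, response genes, acute phase proteins and inducers), 33 were higher and 10 lower in allografts than in isografts at an adjusted p of at most 0.10, or 39.3% and 11.9%, while 22.6% of all genes were higher and 23.3% lower. The median log2 difference was 0.46 in the lists and 0.02 over all genes. STAT3 and C/EBP response genes showed this most evenly, with 12 of 15 higher, 1 lower and a median of 1.06. Among them were Birc5 (log2 difference 2.33, SE 0.54), an inhibitor of apoptosis, Hif1a (2.13, SE 0.16), the hypoxia factor, and Cebpb (1.88, SE 0.20), which reached 8.63 to 13.6 in allografts against 2.17 to 3.77 in isografts. Vegfa was the 1 lower gene of this list (-0.70, SE 0.25).

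Of 31 other acute phase genes, 7 were higher, 3 were lower and 21 did not pass. Il1rn, the IL-1 receptor antagonist, differed by 4.56 (SE 0.56), Hamp, the iron hormone hepcidin, by 3.54 (SE 0.26), and Cd14, the endotoxin co-receptor of macrophages, by 3.29 (SE 0.23). Hamp was 14.3 to 32.7 in allografts and 1.30 to 2.98 in all other hearts. Itih3 (-1.93, SE 0.87, too dim for the signal criterion), Serping1 (-0.97, SE 0.34) and Ttr (-0.81, SE 0.16), which encodes the negative acute phase protein transthyretin, were the 3 lower genes. Inducers had 6 of 12 higher and 0 lower, led by Il1b (2.90, SE 0.37), Ifng (1.84, SE 0.70, too dim for the signal criterion) and the adaptor Myd88 (1.80, SE 0.20). The list of 8 monocyte and macrophage markers, which includes Cd14, was higher in 8 of 8, and its part in these differences was not tested.

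The receptor side did not rise as a group. Il6r, the IL-6 receptor, was 1.85 to 3.00 in allografts and 0.787 to 1.72 in isografts (log2 difference 1.24, SE 0.28), whereas its partner Il6st fell from 8.44 to 11.3 in isografts to 4.87 to 7.18 in allografts (-0.78, SE 0.17, adjusted p = 0.00143 in limma). Il11ra1 was lower as well (-0.93, SE 0.24), and the median of the 5 receptors was -0.38. Among the 4 other ligands Il11 was higher (1.35, SE 0.56, too dim for the signal criterion) and cardiotrophin 1 (Ctf1) lower (-1.31, SE 0.17). Of 9 other kinases, STATs and adaptors, 4 were higher, led by Jak2 (1.24, SE 0.35), Tyk2 (1.12, SE 0.26) and Jak3 (0.90, SE 0.30), and the phosphatase Ptpn11 was lower (-1.02, SE 0.20). The 8 other inhibitors were split, with Ptpn6 (2.13, SE 0.17) and Ptpn2 (0.79, SE 0.15) higher and Socs2 (-1.35, SE 0.41, too dim for the signal criterion) and Dusp1 (-0.75, SE 0.20) lower.

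Between native hearts 7 of the 84 other genes of the pathway passed. In BN 4 were higher (4.76%) and 3 lower (3.57%), beside 1.34% and 1.41% of all genes, with a median of 0.03 against -0.04 over all genes. The higher ones, all 7 named here after their values were seen, were Serping1, the C1 inhibitor (1.28, SE 0.34), the metallothionein Mt2A (1.11, SE 0.22), Ctf1 (0.71, SE 0.17) and the zinc transporter Slc39a14 (0.66, SE 0.18). The lower ones were Egr1 (-1.22, SE 0.33), Il6r (-1.20, SE 0.28, too dim for the signal criterion) and Dusp1 (-0.88, SE 0.20). Acute phase genes held 3 of the higher genes (3 of 31, 9.68%) and 0 of the lower ones. None of 15 response genes was higher and 0 of 12 inducers passed in either direction (limma, adjusted p of at most 0.10).

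Between isografts and native DA hearts, 8 of the 84 other genes were higher and 7 lower, beside 7.65% and 7.12% of all genes, with a median of -0.08 in both. The matrix protease inhibitor Timp1 was the largest rise (log2 difference 2.73, SE 0.39, adjusted p = 0.00116 in limma), followed by ceruloplasmin, Cp (1.85, SE 0.46). The fibrinogen chains Fgg (-1.93, SE 0.55) and Fgb (-1.35, SE 0.32) were lower, both with signals too dim for the signal criterion in either group. Il6st was higher in isografts (0.58, SE 0.18), as were Serping1, Jak2, Cd14, Tyk2 and Hif1a. Lifr, Ttr, Lif, Itih4 and Dusp1 were lower. Of these, Jak2, Tyk2, Lifr, Lif and Itih4 were too dim for the signal criterion.

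**Figure D3:**
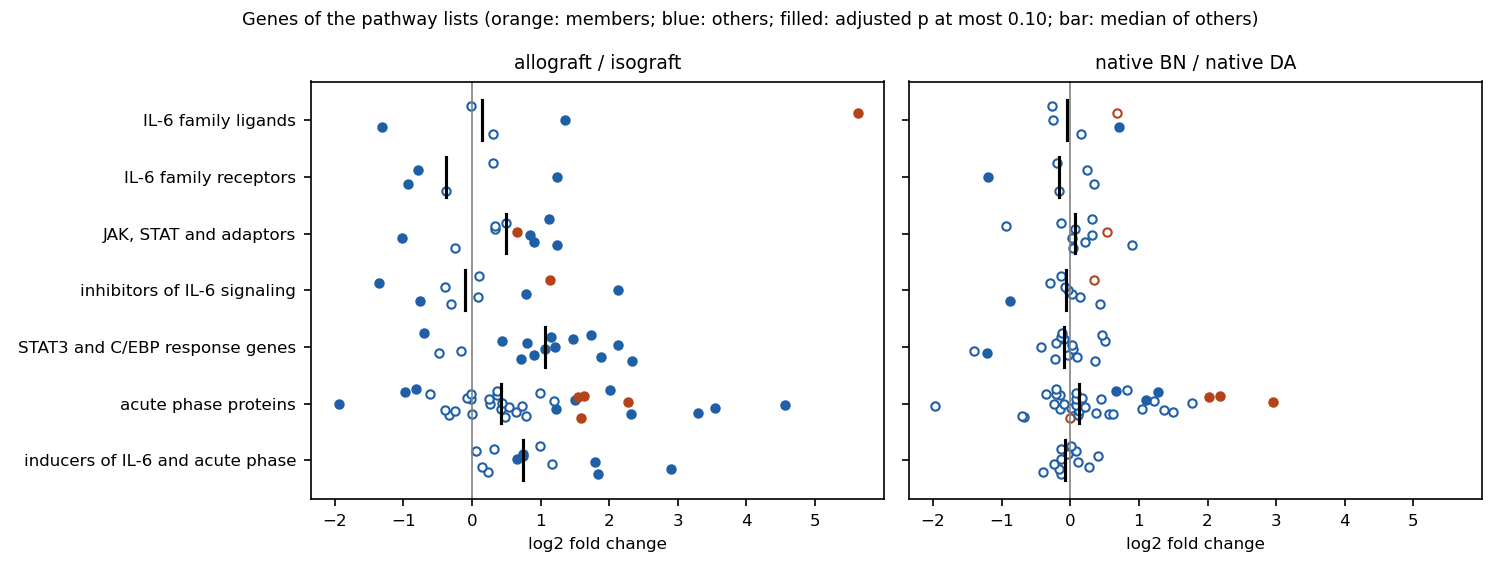
Log2 fold changes of measured genes in 7 pathway lists between allografts and isografts and between native BN and native DA hearts, 1 probeset per gene. Filled points passed an adjusted p of 0.10 and black bars are medians of the genes that are not members. Response genes lie mostly above 0 between grafts (median 1.06) and around 0 between native hearts.

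In PBMC most members were dim. Il6, Reg3b, Reg3g and A2m were below the array median in all 20 samples and Lcn2 in 19, so that 3 of the 8 probesets, those of Stat3 and Socs3, met the signal criterion. The exception for Lcn2 was allograft recipient QR5 with 1.99, where the other 4 allograft recipients had 0.334 to 0.528. The isograft recipients had 0.0773 to 0.668 with a median of 0.368, and the summed level of 12 neutrophil genes was 150 to 318 in allograft recipients and 40.5 to 125 in isograft recipients. These genes did not move one way, since 5 (among them S100a8, S100a9 and Fcnb) were higher, 3 (Camp, Mmp9 and Np4) were lower and 4 did not pass, with a median of -0.06, and their part in the Lcn2 values was not tested. Animals are not matched here between heart and PBMC numbers.

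Stat3 was lower in the blood of allograft recipients than of isograft recipients. By 1370224_at its level was 1.41 (QR3), 8.49 (QR4), 9.54 (QR5), 8.95 (QR6) and 4.5 (QR7) in allograft recipients. In isograft recipients it was 10.5 to 20.7 with a median of 15.9, above all allograft recipients. Untransplanted BN rats had 6.63, 8.54 and 6.39 and untransplanted DA rats 16.8, 15.7 and 9.47, again without overlap. The log2 difference between allograft and isograft recipients was -1.49 (SE 0.35, adjusted p = 0.00736 in limma over 31042 probesets), and -1 (SE 0.22, adjusted p = 0.00547) without QR3. The difference in untransplanted rats, -0.93 (SE 0.51, adjusted p = 0.355), did not pass. The second probeset, 1371781_at, was 4.83 to 6.88 in allograft recipients and 5.79 to 9.99 in isograft recipients (-0.46, SE 0.15, adjusted p = 0.058), and this difference was no longer past the threshold without QR6 or QR7. T cell markers moved in the same direction, with 8 of 10 lower in allograft than in isograft recipients (median -0.77), summed levels of 181 to 312 against 295 to 500, and 407 to 456 in untransplanted BN against 744 to 784 in untransplanted DA rats. Red cell precursor markers were lower in 5 of 6 (median -2.24, summed levels of 147 to 232 against 218 to 532) and platelet markers in 4 of 5 (median -1.06, 183 to 278 against 313 to 405), with 1 platelet gene higher. NK cell markers were lower in 3 of 7, whereas monocyte and macrophage markers were higher in 6 of 11 and B cell markers in 3 of 4. The part of these cells in the Stat3 difference was not tested.

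Reg3g was dim in PBMC but higher in allograft recipients. It was 0.883, 0.679, 0.421, 0.705 and 0.587 in QR3 to QR7 and 0.0919 to 0.504 with a median of 0.336 in isograft recipients, a log2 difference of 1.01 (SE 0.35, adjusted p = 0.0669 in limma) that was no longer past the threshold without QR3, QR4, QR6, QR7 or isograft recipient QR16. Reg3b was 0.380 to 0.984 in allograft recipients and 0.0799 to 0.668 in isograft recipients (0.95, SE 0.51, adjusted p = 0.257). In untransplanted rats Reg3b was 0.311 to 0.391 in BN and 0.0389 to 0.183 in DA, without overlap, but the difference of 2.14 (SE 0.75) had an adjusted p of 0.114 in limma. Il6 was 0.384 to 0.600 in allograft recipients and 0.0651 to 0.666 in isograft recipients, with a log2 difference of 0.88 and a 95% interval from -0.05 to 1.81. Socs3 was 1.44 to 3.95 against 0.944 to 3.21 (0.55, 95% interval -0.10 to 1.19). The highest Socs3 value was that of QR3, which had the lowest Stat3 by 1370224_at but not by 1371781_at. A link between Socs3 and Stat3 was not tested.

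None of the 8 probesets was called in PBMC, for strain (1.05% of all probesets called), for strain plus rejection (1.04%) or for the ratio of both effects (0.122%). At limma's unadjusted p under 0.05, Reg3b passed for strain, both Stat3 probesets and Reg3g passed for strain plus rejection, and no member passed for the ratio. The share of all probesets at that threshold is not given here, so nothing is read from these counts. At an adjusted p of at most 0.10, 1 of the 8 was higher and 2 were lower for strain plus rejection. Beside them, 7.75% of all genes were higher and 15.2% lower. For strain and for the ratio 0 of the 8 passed the adjusted p. The ratio of effects, in which an equal batch effect cancels, ranged from -1.58 for A2m (SE 1.06) to 1.13 for Lcn2 (SE 1.23), and its intervals were wide: -1.85 to 0.74 for Stat3 1370224_at, -1.37 to 1.92 for Il6 and -0.39 to 2.24 for Reg3g.

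**Figure D4:**
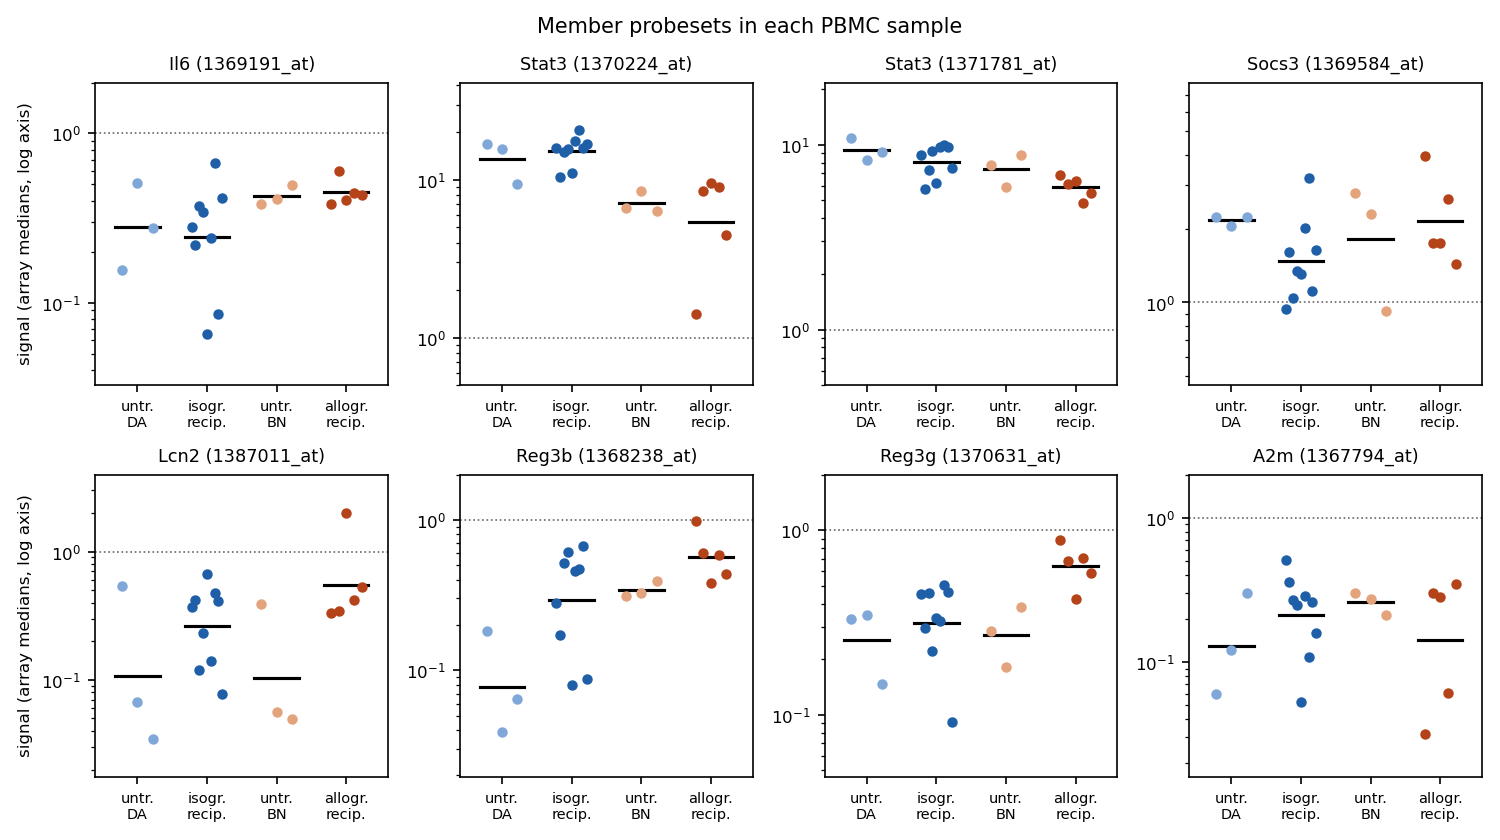
Signals of the 8 member probesets in each of the 20 PBMC samples, in array medians on a log axis, with geometric means as black bars and the array median dotted. Stat3 1370224_at is lower in allograft recipients (1.41 to 9.54) than in isograft recipients (10.5 to 20.7). It was 6.39 to 8.54 in untransplanted BN and 9.47 to 16.8 in untransplanted DA rats, a difference that did not pass. Il6, Reg3b, Reg3g and A2m lie under the array median throughout.

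Among 96 other pathway genes measured in PBMC, 14 were higher and 13 lower in allograft than in isograft recipients, beside 7.75% and 15.2% of all genes. Il6st was lower (-1.19, SE 0.16, adjusted p = 6.07e-05), as were Il27ra (-0.99, SE 0.19) and Il6r (-0.55, SE 0.14), so 3 of the 6 receptors fell and none rose. Il1rn was 4.64 to 8.5 in allograft recipients and 0.149 to 2.74 in isograft recipients (3.06, SE 0.79, adjusted p = 0.0145). Lbp, the lipopolysaccharide binding protein (1.48, SE 0.19), Cd14 (1.18, SE 0.26) and Cebpd (0.92, SE 0.17) were also higher, and haptoglobin, Hp, was lower (-1.28, SE 0.22). In untransplanted rats 7 of the 96 genes were higher and 6 lower in BN, beside 4.43% and 5.47% of all genes. Lbp (1.35, SE 0.27), C3 (1.81, SE 0.29), Cebpd (1.14, SE 0.24) and Pim1 (2.22, SE 0.56) were higher there, while Il6st (-0.92, SE 0.24) and Hp (-1.44, SE 0.32) were lower. Only Il1r1, the signaling receptor of IL-1, passed for the ratio of effects (1.84, SE 0.35, adjusted p = 0.0406 in limma). It was 1 of the 96 genes, beside 25 higher and 20 lower among all 14217 genes.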

How the data were processed

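The deposited values are linear signal intensities, 1 for each probeset, which the authors computed by MAS5. The software version is not given in the sources used here, and present calls were not used. Each array was divided by its median over non-control probesets and transformed to log2. Each tissue was fitted in limma 3.58.1 (R 4.3.3) with a mean per group over all 4 groups, and p-values were adjusted by Benjamini-Hochberg over all 15866 heart or 31042 PBMC probesets. The fold limit of 3 and the false discovery rate are those of the study, and a signal not below the array median in 50% of a group took the place of the present call. Python 3.11.15 served for summaries, Biopython 1.88 for alignment and matplotlib 3.10.9 for figures. The fit was also run on simulated data with normal noise and planted changes. The outcome is not given here, and nothing about dim signals is read from it. Probesets were named from the platform annotation, with symbols updated to the RefSeq gene table of GRCr8, and each listed gene was represented by its brightest probeset. The annotation gave 1 symbol, several or none to 12783, 312 and 2771 heart probesets and to 20826, 436 and 9780 PBMC probesets, and none was named from several. The number of arrays limits the precision. Samples of 1 group came from separate animals.

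The members, lists and tests were chosen with earlier results of these data known. Genes named are all members, genes closest in pattern to a member, and genes of the pathway lists past the adjusted p. The latter were drawn from up to 3 with the largest rise and 3 with the largest fall in each list, and not all of these are named. Between native hearts and between isografts and native DA hearts, all that passed are named. Some marker genes are named as well. A native and a transplanted heart with 1 number were taken from 1 recipient, by the labels and the transplant model. After group means were removed their correlation over all probesets was between -0.04 and 0.12, and with the recipient as a random block its consensus was 0.06. Alternatives were quantile normalization, no median scaling, an offset of 0.25, other signal criteria, fits of the compared groups alone, each sample left out in turn, and the recipient or rat number as a block.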

Additional observations from a re-analysis of the deposited data

Results flagged for a closer look

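Signals of each member within a group of 4 to 9 samples were compared with Dixon's criterion on the log2 scale, by which chance alone marks about 1 in 20 groups. Of 48 groups, 7 held a sample far from the others. In native BN heart A5, Lcn2 was 5.52 array medians where the other 4 hearts had 1.47 to 1.77, and Reg3b was 10.1 where they had 1.49 to 2.44. In recipient I11, Il6 was 0.286 in the isograft, where the other 3 had 0.0346 to 0.0471, and 0.068 in the native heart, where the others had 0.0463 to 0.0471. Lcn2 was 1.99 in PBMC of allograft recipient QR5 against 0.334 to 0.528 in the other 4. Stat3 1371781_at was 4.78 in native DA heart I12 against 3.20 to 3.41 in the other 3. In PBMC of isograft recipient QR9, Reg3g was low at 0.0919 against 0.223 to 0.504 in the other 8.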

How the results depend on the processing

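Of 984 recomputed fold changes of members, 922 kept their direction and their side of the threshold, and 113 of 123 recomputed counts of called members stayed within 1.5 times. Between allografts and isografts the count of 4 was 1 (Il6) with 0.25 array medians added before the logarithm and 2 with the signal criterion at the 65th percentile. With that criterion it was 1 in place of 3 between native hearts and 1 in place of 2 between allografts and native BN hearts. Leaving out each sample in turn gave 2 to 5 called members between grafts (2 without allograft A5 or isograft I13), 2 to 3 between native hearts (2, Reg3b being lost, without native BN heart A5 or native DA heart I9, I11 or I12), 2 between allografts and native BN hearts, and 0 to 1 between isografts and native DA hearts (Reg3b without isograft I13). In PBMC it gave 0 to 1 for strain plus rejection (Stat3 1370224_at past 3-fold without QR4, QR5 or QR6) and 0 for strain and for the ratio. Some differences that passed no test changed sign. For strain in PBMC, Lcn2 was 0.10 without median scaling, 0.37 without BN2, 0.46 without BN3 and 1.09 without DA1 (-1.03 to 1.09 with each sample left out), Socs3 was 0.23 without BN3 (-0.58 to 0.23), and Reg3g was -0.17 without BN3 and -0.32 without DA3 (-0.32 to 0.37). For the ratio, Stat3 1371781_at was 0.01 without BN3 (-0.28 to 0.01), Lcn2 was -0.02 without DA1 (-0.02 to 2.09) and Il6 was -0.16 without DA2 (-0.16 to 0.70). Over all probesets, calls without the signal criterion were 124 in place of 57 between native hearts, 332 in place of 144 between isografts and native DA hearts, and in PBMC 808 in place of 325 for strain, 597 in place of 323 for strain plus rejection and 81 in place of 38 for the ratio. With the offset they were 35 and 88 in these heart comparisons and 205 for strain plus rejection, and with the 65th percentile 199 for strain and 22 for the ratio. Without median scaling the median of all PBMC probesets moved from -0.08 to 0.08 for strain and from -0.03 to 0.10 for strain plus rejection, and the calls from 132 higher and 193 lower to 189 and 166, and from 125 and 198 to 155 and 164. With the replicate block the counts were unchanged at 4, 3, 0 and 2 in hearts and at 0 for strain and 0 for the ratio in PBMC, where untransplanted rats share only a number. The cause of these changes was not tested. Signals under the array median limit most values of Il6 and A2m outside allografts and of all members but Stat3 and Socs3 in PBMC.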
